A study of Mus musculus with 4 samples.

Results

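The amyloid precursor protein family was followed through the steady-state levels and splicing of 5 genes in the E14.5 mouse cortex with and without *Qk*. These were the family members *App*, *Aplp1* and *Aplp2*, and the cytoplasmic binding partners *Apbb1* and *Apbb2*. They were selected by gene symbol from 23038 genes, and their splicing events were found by gene identifier, which gave 38 of 38240 events. RNA came from the cortices of 4 embryos described as littermates, 2 *Qk* fl/fl (control) and 2 *Nestin*-cre:*Qk* fl/fl (*Qk* cKO), and all 4 carry the floxed *Qk* alleles. GEO labels the controls wild type. Cre is driven by the *Nestin* promoter, which is active in neural progenitor cells, whereas the RNA is that of the whole cortex, in which progenitors, neurons and other cells are mixed. Between 37942046 and 42994832 tags per sample had been assigned to genes, a tag being the unit that the authors' counting tool assigned to a gene. The sample titles only number the replicates, and the paper calls them independent. All p-values thus measure the spread, or the counting error, of these 4 samples.

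The App family are membrane proteins with a large extracellular part, a single transmembrane region and a short intracellular tail. Secretases cleave them near and within the membrane, and the tail binds adaptor proteins, among them those encoded by *Apbb1* (Fe65) and *Apbb2* (Fe65-like). Alternative exons of *App* and *Aplp2* encode a Kunitz protease inhibitor (KPI) domain in the extracellular part, and a separate short exon lies just before the transmembrane region (juxtamembrane exon). Transcripts without the juxtamembrane exon encode proteins that can carry a chondroitin sulfate chain, and the main *App* form of neurons lacks the KPI exon and the neighbouring OX2 exon. Qki5, the nuclear protein of *Qk*, binds pre-mRNA and regulates alternative splicing in neural stem cells.

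The 5 alternative exons of *App* and *Aplp2* on which the splicing results turn were taken from the GENCODE M21 transcripts on GRCm38 (mm10). Capitals mark the alternative exon, and the lower-case letters are the 24 nt of the flanking exons of the same mRNA.
App KPI exon: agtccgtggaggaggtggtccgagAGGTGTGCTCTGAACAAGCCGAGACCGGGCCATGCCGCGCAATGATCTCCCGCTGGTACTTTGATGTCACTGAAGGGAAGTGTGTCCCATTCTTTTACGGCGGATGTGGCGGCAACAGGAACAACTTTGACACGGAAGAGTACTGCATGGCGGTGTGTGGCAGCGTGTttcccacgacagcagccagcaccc
App OX2 exon: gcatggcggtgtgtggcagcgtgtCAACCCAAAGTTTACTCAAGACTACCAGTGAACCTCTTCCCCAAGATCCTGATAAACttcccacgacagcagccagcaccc
App juxtamembrane exon: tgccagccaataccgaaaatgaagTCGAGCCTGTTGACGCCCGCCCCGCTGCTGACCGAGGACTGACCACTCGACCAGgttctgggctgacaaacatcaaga
Aplp2 KPI exon: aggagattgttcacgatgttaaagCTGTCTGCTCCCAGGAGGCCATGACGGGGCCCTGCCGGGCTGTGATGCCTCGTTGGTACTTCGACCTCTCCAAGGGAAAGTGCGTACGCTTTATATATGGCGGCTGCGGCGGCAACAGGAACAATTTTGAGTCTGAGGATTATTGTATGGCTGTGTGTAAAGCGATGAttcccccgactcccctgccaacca
Aplp2 juxtamembrane exon: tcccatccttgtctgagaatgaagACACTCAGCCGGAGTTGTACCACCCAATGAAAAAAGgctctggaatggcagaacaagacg

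All 5 exons are coding and keep the reading frame. *App* lies on the minus strand of chromosome 16 (chr16:84949685-85173766), with its KPI exon of 168 nt at chr16:85043576-85043743 (exon 7), its OX2 exon of 57 nt at chr16:85040251-85040307 (exon 8) and its juxtamembrane exon of 54 nt at chr16:84971408-84971461 (exon 15). *Aplp2* lies on the minus strand of chromosome 9 (chr9:31149557-31211815), with its KPI exon of 168 nt at chr9:31167561-31167728 (exon 7) and its juxtamembrane exon of 36 nt at chr9:31156190-31156225 (exon 13). The KPI exons have the same length and share 114 of 168 bases (67.9%). The juxtamembrane exons differ in length, encoding 18 codons in *App* and 12 in *Aplp2*, and of the 48 flanking bases printed above, 28 are identical (58.3%). The annotation holds 2 *Aplp2* transcripts with and 2 without the juxtamembrane exon, and 4 *App* transcripts with and 2 without theirs.

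The largest of the called splicing changes of these genes was in *Aplp2*, whose juxtamembrane exon was included less in *Qk* cKO, while the transcript level of *Aplp2* did not differ beyond the spread between samples. Smaller decreases in inclusion were found for the juxtamembrane and KPI exons of *App*. No event of *Apbb1* or *Apbb2* was called. Inclusion (*I*) is the share of junction tags that join the exon to its neighbours, with the mean of both inclusion junctions set against the skipping junction, and Δ*I* is inclusion in control minus inclusion in *Qk* cKO. The coverage of an event is the smallest marginal sum when its junction tags are laid out by group and isoform. Events with a coverage of 20 or more entered Fisher's exact test (two-sided), in which the isoform tags of the 2 embryos of a group were added up. Changes were called at p below 0.01 and a Benjamini-Hochberg FDR below 0.1 within the event type. Of the 38 events, 17 were tested, and since some rest on identical isoform tags these are 15 distinct events. Of the 17 tested events 5 were called, and of the 15 distinct ones 4, 3 in *App* and 1 in *Aplp2*. Over all genes, 862 of 11500 events were called (7.50%), and shares over all genes keep events with identical isoform tags. Distinct events can still share tags. The called event of *App* exons 7 and 8 together has the same skipping junction as the called KPI event. The tested mutually exclusive events of *Apbb1* are pairings of the same exons. Among the called events, only that of *Aplp2* had an absolute Δ*I* of at least 0.1, and over all genes 3.30% of events were called with a change of that size. Events that were not called reached an absolute Δ*I* of 0.128 in *Apbb1* and 0.114 in *Apbb2*. Among cassette exons, which are included or skipped whole, 9.28% were called, 5.17% with lower inclusion in *Qk* cKO, and this share rises with depth, to 14.6% at a coverage of at least 100 and 22.9% at a coverage of at least 500, a split added after the data were seen. Because Fisher's exact test on summed tags leaves out the variation between embryos, an edgeR interaction test of isoform by genotype, which estimates it, is given with each call. It called 1 of the 15 events, the *Aplp2* juxtamembrane exon, against 0.557% of all events tested. A permutation test of 2 against 2 embryos cannot go below p = 0.333.

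**Figure D1:**
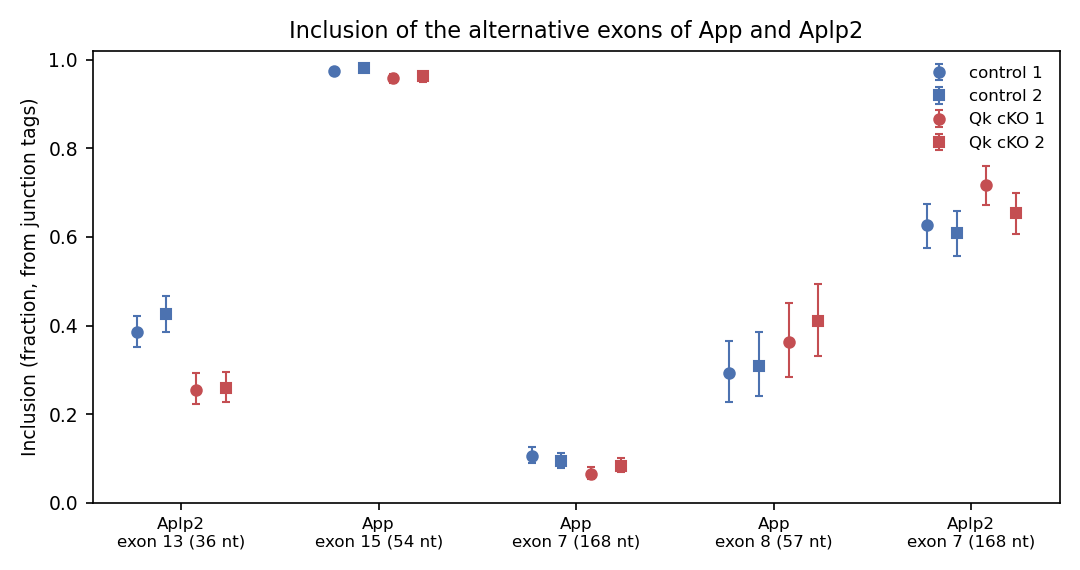
Inclusion (fraction, y axis) of the 5 alternative exons of *App* and *Aplp2* in each control (blue) and *Qk* cKO (red) sample, with 95% Wilson intervals that cover counting error only. Inclusion of *Aplp2* exon 13 lies at 0.386 and 0.426 in control and at 0.255 and 0.260 in *Qk* cKO, and the intervals of the groups are apart.

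The *Aplp2* juxtamembrane exon (exon 13) was included at 0.386 (95% Wilson interval 0.352 to 0.422) and 0.426 (0.385 to 0.467) in the control embryos. In the *Qk* cKO embryos, it was included at 0.255 (0.222 to 0.292) and 0.260 (0.228 to 0.295). Both *Qk* cKO samples lay below both controls, and the difference between the groups was larger than that between the replicates of either. Over summed tags, the exon was included at 0.403 in control against 0.258 in *Qk* cKO, a Δ*I* of 0.145 (Fisher's exact test, p = 1.28e-14, FDR = 2.03e-12). In terms of skipping, 59.7% of control and 74.2% of *Qk* cKO *Aplp2* transcripts lacked the exon. In the edgeR interaction test with Benjamini-Hochberg adjustment, p was 6.45e-04 and FDR 0.0761. With each embryo left out in turn, Δ*I* lay between 0.128 and 0.168. The edgeR interaction test was not repeated with an embryo left out.

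Both junctions of the *Aplp2* juxtamembrane exon were lower in *Qk* cKO. The junction of exons 12 and 13 had 260.1 and 239.7 tags in control and 152 and 164 in *Qk* cKO. The junction of exons 13 and 14 had 307 and 237 tags in control and 158 and 179 in *Qk* cKO. The skipping junction of exons 12 and 14 had 451 and 321 tags in control and 451 and 487 in *Qk* cKO. Each inclusion junction was thus lower in both *Qk* cKO samples than in either control, whereas the skipping tags of a control and a *Qk* cKO embryo coincided. Scaled to library depth, the mean of the inclusion junctions was 6.85 and 6.28 tags per 1000000 library tags in control and 3.60 and 4.18 in *Qk* cKO. The skipping junction had 10.9 and 8.47 in control and 10.5 and 11.9 in *Qk* cKO, so that the groups overlapped. Among the 223 cassette exons of all genes called with an absolute Δ*I* of at least 0.1, of which 121 had lower inclusion in *Qk* cKO, the *Aplp2* exon ranked 1 by coverage (1591 tags) and 151 by the size of Δ*I*. With this coverage the counting error behind its inclusion is small compared with most exons that changed by as much.

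**Figure D2:**
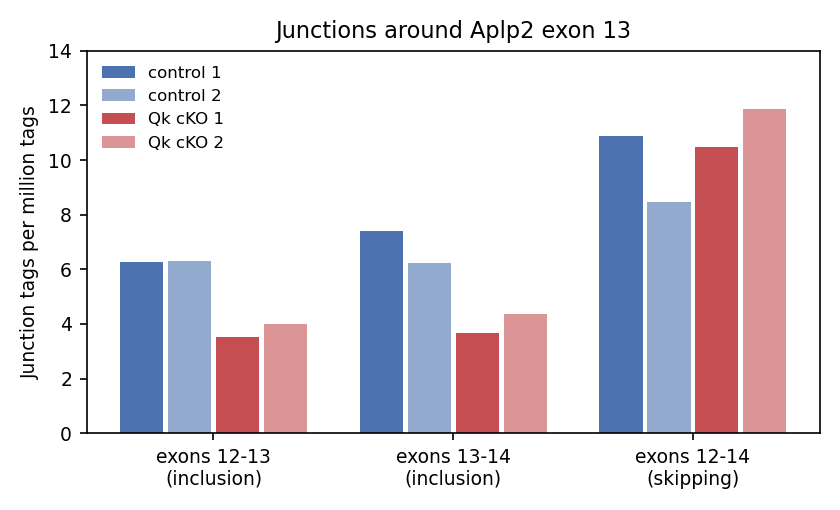
Junction tags scaled to library depth (per 1000000 tags, y axis from 0) on the 3 junctions around *Aplp2* exon 13 in each sample, blue for control and red for *Qk* cKO. Both inclusion junctions are lower in the 2 *Qk* cKO samples than in the 2 controls, and on the skipping junction the groups overlap.

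The juxtamembrane exon of *App* (exon 15), which takes the corresponding place in *App*, was included in nearly all transcripts. Inclusion was 0.975 (0.965 to 0.982) and 0.981 (0.972 to 0.987) in control and 0.959 (0.947 to 0.968) and 0.962 (0.949 to 0.971) in *Qk* cKO. Both *Qk* cKO samples were lower than both controls, and the intervals of control replicate 1 overlapped with those of both *Qk* cKO samples. The skipping junction had 36.1 and 23.1 tags in control and 56.7 and 45.9 in *Qk* cKO. Skipping thus rose from 2.22% to 3.99% of *App* transcripts, a Δ*I* of 0.0176 (Fisher's exact test, p = 1.69e-04, FDR = 0.00539). The edgeR interaction test did not call it (FDR = 0.306). Without control replicate 2, Fisher's exact test gave a Δ*I* of 0.0148 and an FDR of 0.120, no longer called.

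On the odds scale, the juxtamembrane exons of both genes were set side by side. The odds of inclusion in *Qk* cKO relative to control, from summed isoform tags, were 0.543 (95% interval 0.464 to 0.634) for *Aplp2* and 0.543 (0.393 to 0.750) for *App*. The ratio of these odds ratios was 0.999, with an interval of 0.698 to 1.43 that covers counting error only and leaves room for a difference in either direction. The larger Δ*I* of *Aplp2* goes with its inclusion near the middle of the range, where *App* was near the upper end.

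The KPI exon of *App* (exon 7) was measured by its junctions with exons 6 and 9 against the junction of exons 6 and 9, so that forms in which exon 8 follows exon 7 count only in part, and the value is lower than the share of transcripts with the exon. By this measure inclusion was 0.106 (0.0897 to 0.125) and 0.0939 (0.0782 to 0.112) in control and 0.0653 (0.0527 to 0.0805) and 0.0830 (0.0684 to 0.10) in *Qk* cKO. Both *Qk* cKO samples were lower than both controls, but the intervals overlapped except between replicate 1 of each group. Over summed tags, the measure was 0.10 in control and 0.0739 in *Qk* cKO, a Δ*I* of 0.0262 (Fisher's exact test, p = 6.12e-04, FDR = 0.0153). It was not called by the edgeR interaction test (FDR = 0.597). Fisher's exact test lost the call without control replicate 1, at an FDR of 0.273, and without *Qk* cKO replicate 1, at an FDR of 0.546. A further event of the same exon, with a downstream splice site of almost no tags of its own, has the same isoform tags and was counted once. Its inclusion rests almost only on the junction of exons 6 and 7, averaged with the nearly empty one. This was 0.0598 and 0.0484 in control and 0.0343 and 0.0497 in *Qk* cKO, so that the groups overlapped (Δ*I* = 0.0125).

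The OX2 exon of *App* (exon 8) is measured by its junctions with exons 7 and 9 against the junction of exons 7 and 9. A form with exon 8 but without exon 7 would thus count in part. The junction of exons 8 and 9 had 55.6 and 56.7 tags in control and 49.3 and 61.8 in *Qk* cKO. That of exons 7 and 8 had fewer, 39.6 and 39.6 in control and 40.0 and 50.6 in *Qk* cKO. Inclusion of exon 8 was 0.292 (0.228 to 0.366) and 0.309 (0.241 to 0.385) in control and 0.362 (0.283 to 0.450) and 0.410 (0.331 to 0.494) in *Qk* cKO. These values were higher in both *Qk* cKO samples, with overlapping intervals, and Δ*I* was -0.0876 over summed tags. The event missed the threshold (Fisher's exact test, p = 0.0104, FDR = 0.107). On junction tags alone, Fisher's exact test gave an FDR of 0.0798, which would be called, and the edgeR interaction test gave an FDR of 0.587. The tandem event of exons 7 and 8 together was called by Fisher's exact test (p = 0.00410, FDR = 0.0507), although its inclusion overlapped between the groups, at 0.0678 and 0.0613 in control and 0.0473 and 0.0657 in *Qk* cKO. Of tandem cassette events over all genes, 9.99% were called. Its Δ*I* of 0.00831 turned to -0.00118 without *Qk* cKO replicate 1, and the edgeR interaction test gave an FDR of 0.683.

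Because these events of *App* share junctions, the shares of the 3 forms were also calculated from the junctions of exons 6 to 9. That of exons 6 and 7 was left out. This measure was chosen after the data were seen. It takes the mean of both junctions of exon 8 as the form with both exons, and assumes that no form has exon 8 without exon 7. The form with neither exon, the main neuronal form, made up 86.5% and 86.7% in control and 90.3% and 88.5% in *Qk* cKO. The form with exon 7 alone made up 9.54% and 9.16% in control and 6.21% and 6.79% in *Qk* cKO. The form with both exons made up 3.93% and 4.09% in control and 3.53% and 4.73% in *Qk* cKO. The form with neither exon was higher, and that with exon 7 alone lower, in both *Qk* cKO samples, whereas for the form with both exons the groups overlapped. Over summed tags, the exon 7 form was 9.35% (95% Wilson interval 8.25 to 10.6) in control and 6.49% (5.59 to 7.54) in *Qk* cKO. The form with both exons was 4.01% (3.29 to 4.87) in control and 4.11% (3.39 to 4.97) in *Qk* cKO. By this measure exon 7, alone or with exon 8, was in 13.5% and 13.3% of control forms and 9.74% and 11.5% of *Qk* cKO forms. Over summed tags this share was 13.4% (12.1 to 14.8) in control and 10.6% (9.45 to 11.9) in *Qk* cKO. These shares were not tested, and the intervals leave out the variation between embryos. The junction of exons 6 and 7, left out here, reads exon 7 whether or not exon 8 follows. Inclusion resting almost only on it overlapped between the groups, at 0.0598 and 0.0484 in control and 0.0343 and 0.0497 in *Qk* cKO. The separation of the groups in forms with exon 7, and in that with neither exon, thus depends on the junctions chosen.

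**Figure D3:**
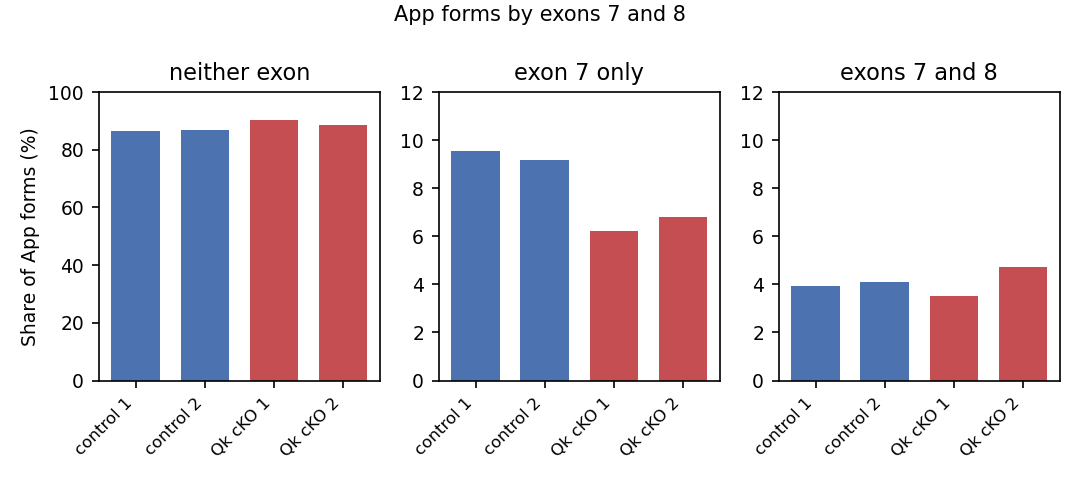
Share of *App* forms (%, y axis from 0, with a different range in the left panel) that contain neither exon, exon 7 alone, or exons 7 and 8, in each control (blue) and *Qk* cKO (red) sample. The exon 7 form is lower in both *Qk* cKO samples (6.21% and 6.79%) than in both controls (9.54% and 9.16%).

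The KPI exon of *Aplp2* (exon 7) was included in most transcripts, unlike that of *App*. Inclusion was 0.627 (0.576 to 0.675) and 0.609 (0.557 to 0.659) in control and 0.717 (0.671 to 0.759) and 0.653 (0.606 to 0.698) in *Qk* cKO. Both *Qk* cKO samples were higher than both controls, and *Qk* cKO replicate 2 lay closer to the controls than to replicate 1. The Δ*I* of -0.0665 was not called by Fisher's exact test on isoform tags (p = 0.0548, FDR = 0.292) or by the edgeR interaction test (FDR = 0.723). On junction tags alone, Fisher's exact test called it (p = 0.00273, FDR = 0.0378), and on isoform tags it was called without *Qk* cKO replicate 2 (Δ*I* = -0.0988, FDR = 0.0888). The odds of inclusion in *Qk* cKO relative to control were 1.21 (95% interval 0.998 to 1.47) for the *Aplp2* KPI exon and 0.779 (0.676 to 0.898) for that of *App*. The ratio of the odds ratios was 1.55 (1.22 to 1.97), an interval that covers counting error only. Neither KPI exon was called by the edgeR interaction test, so a difference between them beyond the variation between embryos was not shown.

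For *Aplp1*, the third family member, the files hold 1 event, a retained intron with a coverage of 13 tags, below the minimum for testing, since few tags lay in the intron. *Apbb1*, on the minus strand of chromosome 7 (chr7:105558483-105581653), had 15 events, of which 6 were tested and 0 called by Fisher's exact test (p of 0.223 or more, FDR of 0.734 or more) or by the edgeR interaction test. The deepest of them was a retained intron of *Apbb1*, with a coverage of 162, which was kept in 0.0387 and 0.0340 of control and 0.0217 and 0.0431 of *Qk* cKO transcripts. Next came an alternative 3' splice site of *Apbb1*, with an inclusion of 0.456 and 0.548 in control and 0.647 and 0.424 in *Qk* cKO. The *Qk* cKO samples lay on either side of the controls in both events. The other 4 tested events of *Apbb1* had a coverage of 23 to 28 tags, and their intervals were wide, such as 0.173 to 0.664 around the inclusion of 0.391 of a cassette exon in control replicate 1.

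*Apbb2*, on the minus strand of chromosome 5 (chr5:66298703-66618784), had 11 events, of which 4 were tested, 3 of them distinct, and 0 called by Fisher's exact test (p between 0.0774 and 0.859) or by the edgeR interaction test. An alternative 3' splice site of *Apbb2* had the smallest p (FDR = 0.365), with an inclusion of 0.270 and 0.487 in control and 0.254 and 0.289 in *Qk* cKO. The controls differed from each other by more than control replicate 1 did from the *Qk* cKO samples. A further 3' splice site of *Apbb2* was used at 0.780 and 0.851 in control and 0.850 and 0.757 in *Qk* cKO, and a pair of mutually exclusive exons at 0.333 and 0.320 in control and 0.345 and 0.176 in *Qk* cKO. The groups overlapped in all 3 events of *Apbb2*. Over all 15 distinct events of the 5 genes, the groups did not overlap in 5, all in *App* and *Aplp2*, against 37.9% of events over all genes.

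At the level of transcripts, no change was called in any of the 5 genes. In edgeR's quasi-likelihood test of the tags, 0 of 5 were called, with 0 at an unadjusted p below 0.05. Over all 18834 genes tested the share called was 0.584%, with 0.207% higher and 0.377% lower in *Qk* cKO. DESeq2 and edgeR's exact test also called 0 of the 5. *Qk* itself was higher, at 21.1 and 21.7 RPKM (reads scaled to exon length and library depth) in control and 32.5 and 34.2 in *Qk* cKO (log2 fold change 0.65, SE 0.0648, FDR = 2.50e-05 by edgeR's quasi-likelihood test). The RPKM counts the whole transcript, and Cre removes only exon 2 of *Qk*, so this level does not check the deletion. The paper itself reports that exon 2 was strongly reduced in the reads of *Qk* cKO, and also by quantitative RT-PCR.

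*Aplp1* was the most abundant of the 5, at 212 and 229.6 RPKM in control and 209 and 199 in *Qk* cKO (rank 200 of 23038 genes by mean RPKM). *App* followed at 180.1 and 182 RPKM in control and 179 and 169 in *Qk* cKO (rank 266). *Aplp2* was at 74.9 and 72.4 RPKM in control and 73.6 and 73.4 in *Qk* cKO (rank 888). *Aplp1* and *App* were each above *Aplp2* in every sample. *Apbb1*, the neuronal Fe65 adaptor, was at 66.0 and 69.6 RPKM in control and 65.4 and 64.2 in *Qk* cKO. *Apbb2* was far lower, at 7.57 and 7.96 RPKM in control and 7.47 and 7.51 in *Qk* cKO. The order *Aplp1*, *App*, *Aplp2*, *Apbb1*, *Apbb2* held in every sample, with no overlap between neighbours over the 4 samples.

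**Figure D4:**
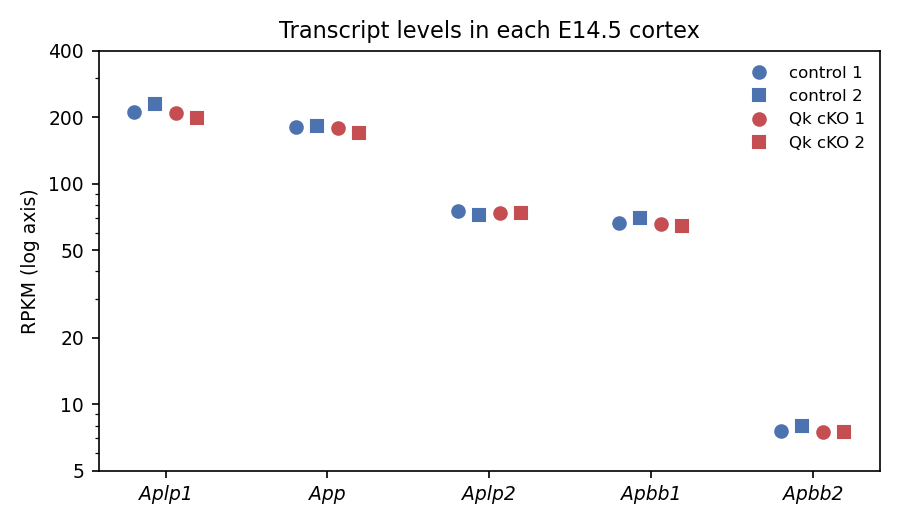
RPKM (log axis) of *Aplp1*, *App*, *Aplp2*, *Apbb1* and *Apbb2* in each control (blue) and *Qk* cKO (red) sample. The samples of a gene lie close together, and the genes keep the same order in all 4 samples.

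The mean level of *App* was 181 ± 1.48 RPKM (SD, n = 2) in control and 174 ± 6.86 in *Qk* cKO (log2 fold change -0.046, SE 0.0769). *Aplp1* was at 221 ± 12.3 in control and 204 ± 7.25 in *Qk* cKO (log2 fold change -0.10, SE 0.0780), and *Aplp2* at 73.6 ± 1.82 and 73.5 ± 0.120 (0.011, SE 0.0658). *Apbb1* was at 67.8 ± 2.58 in control and 64.8 ± 0.828 in *Qk* cKO (log2 fold change -0.051, SE 0.0565), and *Apbb2* at 7.77 ± 0.275 and 7.49 ± 0.0256 (-0.039, SE 0.0817). The FDR of the 5 genes in edgeR's quasi-likelihood test lay between 0.786 for *Aplp1* and 0.978 for *Aplp2*. Both *Qk* cKO samples lay below both controls in *App*, *Aplp1*, *Apbb1* and *Apbb2*, a separation that 36.9% of all genes tested show in either direction. As shares of the summed RPKM of the family, *App* took 37.6% to 38.7%, *Aplp1* 45% to 47.4% and *Aplp2* 14.9% to 16.7% over the 4 samples.

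The other genes of the pathway were followed in 4 lists with 36 genes, of which 0 were called by edgeR's quasi-likelihood test, against 0.584% of all genes. An unadjusted p below 0.05 was found for 5 of the 36 (*Nae1*, *Appbp2*, *Itm2c*, *Mapk8ip1* and *Spon1*), against 8.76% of all genes. DESeq2 and edgeR's exact test also called 0. The 11 secretase genes had a median log2 fold change of 0.05 (-0.19 to 0.18), beside -0.00253 over all 18834 genes. The most abundant, *Ncstn*, a subunit of γ-secretase, was at 47.8 ± 1.07 RPKM (SD, n = 2) in control and 47.0 ± 3.33 in *Qk* cKO. The 11 further adaptors had a median of -0.06 (-0.16 to 0.26), with *Klc1*, a kinesin light chain, highest at 187 ± 2.41 and 177 ± 9.03 RPKM. The 9 sorting and clearance genes had a median of 0.01 (-0.17 to 0.42), with *Itm2b*, a membrane protein that binds App, highest at 132 ± 2.57 and 121 ± 0.489 RPKM. The 5 ligands and co-receptors had a median of 0.01 (-0.30 to 0.25), with the adhesion molecule *Cntn2* highest at 75.4 ± 0.791 and 75.4 ± 8.89 RPKM. *Nae1*, a subunit of the NEDD8-activating enzyme that binds App, was at 46.1 and 43.9 RPKM in control and 48.4 and 58.9 in *Qk* cKO. *Mme*, which encodes neprilysin, was low, at 0.886 and 1.15 RPKM in control and 0.941 and 1.75 in *Qk* cKO. Both were highest in *Qk* cKO replicate 2, and whether they were called depended on the embryos kept.

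**Figure D5:**
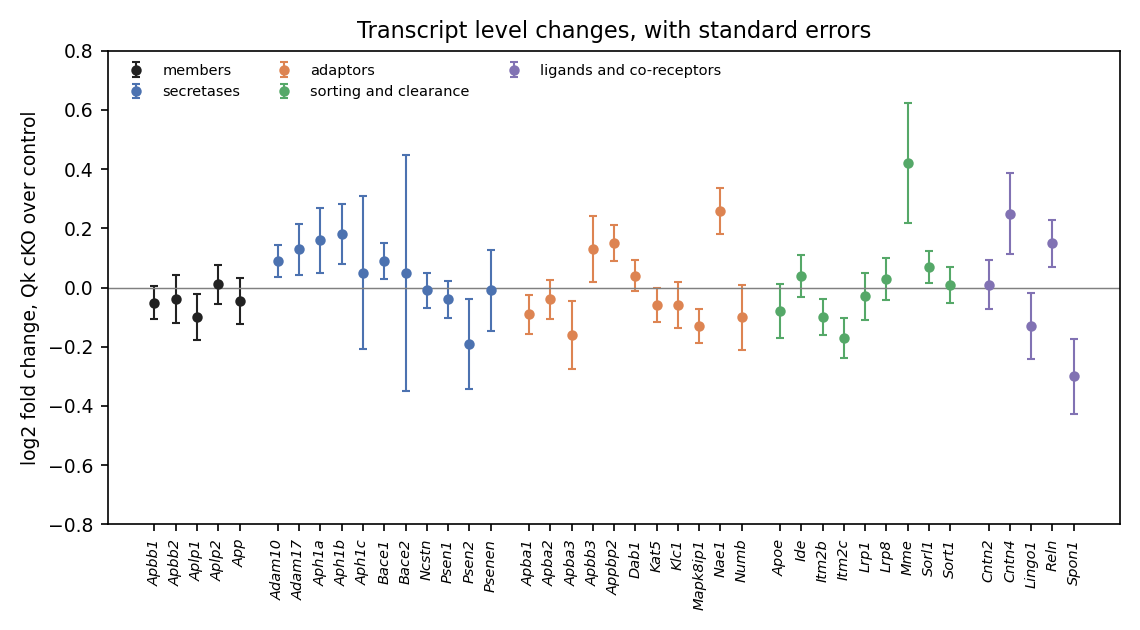
Log2 fold change (*Qk* cKO over control, y axis) of transcript levels for the 5 members and the 36 genes of the pathway lists, in edgeR's quasi-likelihood fit. Bars are standard errors, the horizontal line is at 0, and none of the genes was called.

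In splicing, 30 events in 15 of these 36 genes were tested and 4 were called by Fisher's exact test (13.3%), in 3 genes, against 7.50% of events over all genes. The edgeR interaction test called 0 of the 30, with 6 at an unadjusted p below 0.05, against 0.557% called and 7.17% at that p over all genes. A cassette exon of *Numb*, an endocytic adaptor that binds the App tail, was included at 0.324 and 0.400 in control and 0.631 and 0.658 in *Qk* cKO (Δ*I* = -0.287, FDR = 0.00582 by Fisher's exact test). A pair of cassette events of *Lrp8*, a Reelin receptor, that share their skipping junction had a Δ*I* of -0.139 (FDR = 6.05e-04) and -0.104 (FDR = 0.0399). A retained intron of *Dab1*, a Reelin adaptor that binds App, was kept at 0.733 and 0.870 in control and 0.429 and 0.586 in *Qk* cKO (Δ*I* = 0.295, FDR = 0.0749 by Fisher's exact test). Blocking on replicate number, the *Dab1* event was not called (FDR = 0.117 by the Cochran-Mantel-Haenszel test on tags). In each of the 4 events, which were picked because they were called, the groups did not overlap, against 37.9% of events over all genes. These events rest on a coverage of 28.3 to 356 tags, beside 1591 for the *Aplp2* juxtamembrane exon.

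In whole cortex, fewer cells of a type and less RNA per cell cannot be told apart, nor can a change in inclusion within cells be told from a change in the numbers of cells that carry each form. Over all genes tested, 0.584% were called by edgeR's quasi-likelihood test, 0.377% as lower in *Qk* cKO. Of 8 progenitor markers, all found, 2 fell, *Fabp7* (log2 fold change -0.45, FDR = 0.0153 by edgeR's quasi-likelihood test) and *Slc1a3* (-0.23, FDR = 0.0887). The other 6 were not called, with log2 fold changes of -0.29 for *Sox2*, -0.19 for *Hes5*, -0.01 for *Vim*, 0.04 for *Nes* and 0.08 for both *Pax6* and *Hes1*. The RPKM summed over all 8 was 1633 and 1512 in control and 1329 and 1267 in *Qk* cKO. Without *Fabp7*, the most abundant, the sum of the other 7 was 644 and 612 in control and 627 and 600.0 in *Qk* cKO, so that the groups overlapped. Most of this sum was *Vim*, at 481 and 449 RPKM in control and 469 and 444 in *Qk* cKO. *Sox2*, *Hes5* and *Slc1a3* were lower in both *Qk* cKO samples than in both controls, *Pax6* was higher, and *Vim*, *Nes* and *Hes1* overlapped. Of all genes tested, 36.9% show such a separation in either direction. Of 8 neuronal markers, 7 were found and 0 called, and the summed RPKM was 1240.4 and 1271 in control and 1230.2 and 1160.1 in *Qk* cKO. Markers of microglia, endothelium, red blood cells, meninges, oligodendrocyte lineage and ventral forebrain were detected in all samples, with 0 called by edgeR. Summed over each list, they lay between 9.05 RPKM for oligodendrocyte lineage and 103 RPKM for ventral forebrain. *Fabp7* and *Slc1a3* were lower in the same samples as the inclusion of the juxtamembrane exons, while the rest of the progenitor list was not called, and the part of any of these markers in the splicing values was not tested.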

How the data were processed

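Poly-A RNA of 2 control and 2 *Qk* cKO cortices was sequenced, and per the paper's methods the authors used OLego to map the reads to mm10 and Quantas to count them. The authors deposited, per gene, estimated counts (tags), which need not be whole, and RPKM values that they calculated from them. Per splicing event they deposited estimated counts for the isoforms and junctions. GEO gives 2 replicates per group, whereas the methods give 3. Reads were assigned by the authors, so exons that share sequence depend on that step. A tag need not be 1 fragment, so that the counting intervals may be too narrow.

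Tags were rounded and compared by edgeR 4.0.16 (R 4.3.3, quasi-likelihood test, TMM, factors 0.989 to 1.01) for the genes that had 1 tag or more in 1 sample or more, and the isoform tags of all events by Fisher's exact test in SciPy 1.17.1. The Benjamini-Hochberg FDR was calculated over all genes, or within an event type, and had to lie below 0.1 with p below 0.01. Coverage had to be 20 or more. Wilson intervals are at 95%. DESeq2 1.42.0, edgeR's exact test, other scaling, filters and coverages, junction tags alone, a replicate block, an edgeR interaction test and each sample left out were tried. The edgeR quasi-likelihood, edgeR interaction and Fisher's exact tests were tested on simulated data. Exon positions and sequences are from GENCODE M21 (GRCm38, the build of mm10). Intron and protein sequences were not used here.

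The members, gene lists and tests were chosen with earlier results of these data known. Named genes are the 5 members, *Qk*, the most abundant gene of each pathway list, genes of these lists that were called or had a called event with an absolute Δ*I* of at least 0.1, and those most like the members. The 5 pathway genes at an unadjusted p below 0.05, *Mme* and the progenitor markers were named after their values were seen. The share of called exons at higher coverage, the shares of *App* forms and the marker sum without *Fabp7* were added after the data were seen. The markers *Map2* and *Hbb-bt* were not found by these symbols and are not analysed here.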

Additional observations from a re-analysis of the deposited data

How the results depend on the processing

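Under 9 alternatives, 0 of the 5 members were called at the level of transcripts. The *Aplp2* juxtamembrane exon was called under each alternative test on all 4 embryos. Of these tests, only the edgeR interaction test estimates the variation between embryos. With each embryo left out, the Δ*I* of this exon was 0.128 to 0.168. Of the 15 member events, 4 were called. The edgeR interaction test called 1, and with each embryo left out 2 to 5 were called, 2 without control replicate 1 and 2 without *Qk* cKO replicate 1. Of the 30 pathway events, 4 were called, against 0 by the edgeR interaction test and 2 to 4 with each embryo left out, 2 being the value without *Qk* cKO replicate 1. The calls of pathway transcripts changed only without *Qk* cKO replicate 1, a fit with 1 sample in that group. In the transcript fits with 1 embryo left out, the lone sample is taken to vary like the other group. For splicing events, Fisher's exact test was used with an embryo left out, and it leaves out the variation between embryos. The log2 fold change of *App* ranged from -0.10 to 0.00312 with each embryo left out (0.00312 without *Qk* cKO replicate 2), and that of *Aplp2* from -0.0189 (without control replicate 2) to 0.0382, with -0.00451 without *Qk* cKO replicate 1. The Δ*I* of the *App* tandem event ranged from -0.00118 (without *Qk* cKO replicate 1) to 0.0172. The cause was not tested.

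The labels do not say that a replicate number marks a shared litter or day, and the deviations of same-numbered samples correlated at 0.303 over 12928 genes, -0.0807 over the 12442 autosomal ones and 0.0106 over 6965 splicing events, so the samples were not taken as paired. With the replicate number as a block, 0 member transcripts, 4 member events, 0 pathway transcripts and 3 pathway events (without that of *Dab1*) were called, and the *Aplp2* juxtamembrane exon had a Δ*I* of 0.145 (Cochran-Mantel-Haenszel test on tags, FDR = 1.45e-12). Of the 38 member events, 21 lay under the coverage minimum, 4 of them in *App*. Coverage is the smallest sum, so an event can lie under it because 1 isoform has few tags although the other has many.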

Other observations

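The genes most like each member in level were found by the root mean square difference of log2(RPKM + 1) over the 4 samples. *Nsg1*, which encodes a neuronal endosomal protein, was nearest to *App* (0.0133), at 178 and 183 RPKM in control and 181 and 168 in *Qk* cKO, followed by *Smarcc2*, a subunit of chromatin remodelling complexes (0.0361). *Ngfrap1* (0.0355) and the ferritin heavy chain *Fth1* (0.0613) were nearest to *Aplp1*, and the splicing helicase *Snrnp200* (0.0241) and the non-coding host gene *Gas5* (0.0249) to *Aplp2*. The deubiquitinase *Usp11* (0.0222) and *Atxn7l3b* (0.0223) were nearest to *Apbb1*, and *Enox2* (0.0158) and *Derl2*, a factor of protein degradation at the endoplasmic reticulum (0.0250), to *Apbb2*. The measure follows mostly the mean level, which spans a far wider range than the differences between samples.

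Among 2618 tested cassette exons of other genes with a coverage of at least 50, those whose inclusion was most like that of the *Aplp2* juxtamembrane exon lay in *Tbp*, the TATA-binding protein (root mean square difference 0.0200), in *Hnrnpa2b1*, an RNA-binding protein (0.0252), and in *Slc37a3*, a sugar-phosphate transporter family member (0.0262). The *Tbp* exon was included at 0.377 and 0.392 in control and 0.257 and 0.241 in *Qk* cKO. The *Hnrnpa2b1* exon was included at 0.387 and 0.429 in control and 0.205 and 0.263 in *Qk* cKO. Both were called by Fisher's exact test, whereas the *Slc37a3* exon, at 0.409 and 0.438 in control and 0.263 and 0.216 in *Qk* cKO, was not.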
